A study of Mus musculus with 6 samples.

Results

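The genes described here encode the proteins that start, branch and extend actin filaments, namely the subunits of the Arp2/3 complex, the factors that switch it on, the formins, the Ena/VASP proteins, the tandem WH2 nucleators, and the capping and cyclase-associated proteins that act on filament ends and monomers. The list holds 47 genes. Each was measured by the probeset that carries it as its only gene symbol, or by the brightest such probeset where there were several. This gave 43 measured genes out of the 19933 named genes on the array, while Actr2, Arpc3, Cyfip1 and Fmnl3 had no probeset of this kind. The samples were cultures of NCU10K, an immortalized mouse neural crest cell (NCC) line, transfected with RNAiMAX reagent and either control siRNA or Nedd4 siRNA. Nedd4 encodes a HECT-type ubiquitin ligase. Total RNA was taken after 48 h, and 300 ng of each sample was put on an Affymetrix Mouse Gene 1.0 ST array, with 3 biological replicates, run as separate experiments, and 3 arrays per siRNA. All values come from 1 line, the control was a low-GC siRNA, and no sample restored Nedd4 expression. In such bulk RNA, a lower level in each cell and fewer cells that express a gene cannot be told apart.

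Actin monomers do not readily start a filament by themselves. The Arp2/3 complex binds the side of an existing filament and starts a branch from it, once a nucleation promoting factor such as N-WASP or a WAVE protein has activated it, and the resulting branched network pushes out lamellipodia. Formins instead start unbranched filaments and stay on the growing end, Ena/VASP proteins lengthen filaments at that same end, and capping protein stops growth there. NCCs delaminate from the neural tube and migrate over long distances, which relies on these structures.

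Nedd4 mRNA read 12.24, 12.35 and 12.34 on the log2 scale in control siRNA arrays 1 to 3 and 10.45, 10.94 and 10.68 in Nedd4 siRNA arrays 1 to 3. It was 3.07-fold lower in the latter (log2 fold change −1.62, SE 0.12, limma adjusted p = 3.16e-06). Array medians lay between 6.28 and 6.35, the correlation between any pair of arrays was 0.987 or higher, and no pair was identical. All fold changes below are on the log2 scale, as Nedd4 siRNA minus control siRNA, and a gene passed where its limma p, adjusted over all 28440 probesets, was under 0.05. The arrays number 6, which limits the precision, and the SD between replicates of a group had a median of 0.107 over the 43 genes.

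Of the 43 measured genes, 10 were higher in Nedd4 siRNA treated cells and 3 were lower. Those higher were the Arp2/3 subunit genes Actr3, Arpc1a, Arpc2 and Arpc5, the formin genes Daam1, Inf2, Fhod1 and Fhod3, the WAVE gene Wasf2 and the Ena/VASP gene Enah. Those lower were Wasf1, Wipf1 and Evl. The 10 make up 23.3% of the measured genes, beside 9.62% of all named genes called higher, and the 3 make up 6.98%, beside 9.13% called lower. Taking both directions together, 30.2% of these genes passed and 18.7% of all named genes did. The median log2 fold change over the 43 genes was 0.087, and over all named genes it was −0.017. The count of 10 fell to 6 without control siRNA replicate 3, to 5 without Nedd4 siRNA replicate 1 and to 2 by the methods' t-test. The last estimates the variance of each probeset by itself, as the study's methods do. In the same order, these settings left 3172, 2418 and 1804 named genes called in either direction, in place of 3737. By the methods' t-test 2 of the 43 genes were higher and 2 lower, a share close to that of the 1804 among 19933 named genes. The larger share seen with limma was therefore not seen with that test.

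The changes were small. Those of the 13 genes that passed ranged from 1.25-fold to 1.65-fold, with a median absolute log2 fold change of 0.46, beside 0.49 over all named genes that passed. None of the 43 genes reached an absolute log2 fold change of 1, a size that 261 named genes past the threshold had. The groups did not overlap in 19 of the 43 genes, or 13 of the 13 that passed and 6 of the other 30, and 31.7% of all named genes showed no overlap. Without adjustment, 13 genes were higher and 4 lower at a p under 0.05 (beside 14.7% and 13.7% of all named genes).

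**Figure D1:**
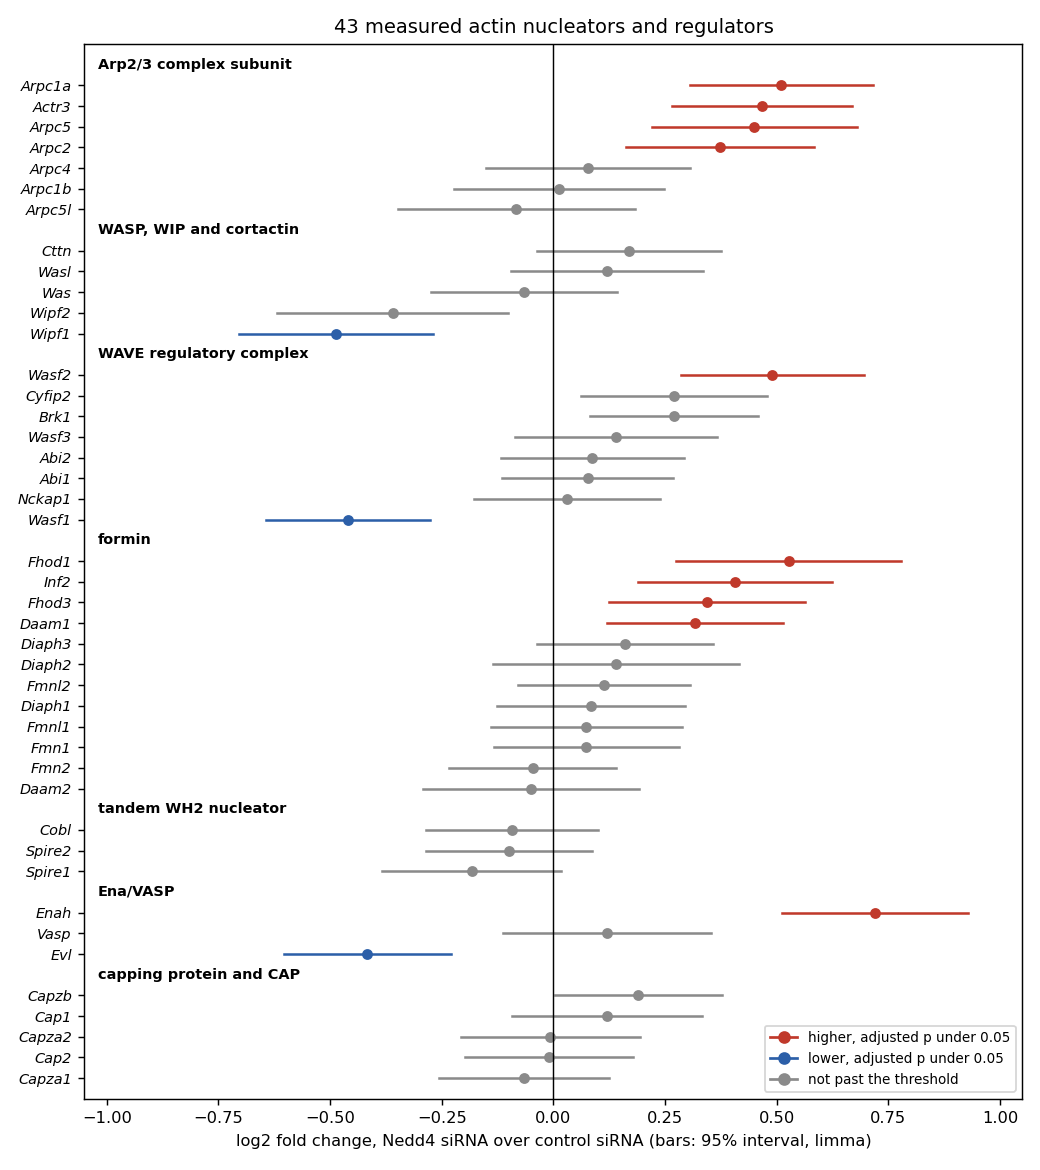
Log2 fold change (Nedd4 siRNA over control siRNA, horizontal axis) of each of the 43 measured genes, grouped by family, with bars for the 95% interval from limma over 3 arrays per group and colours for the call at an adjusted p under 0.05. The Arp2/3 and formin groups hold 4 red points each and no blue one, while the WAVE and Ena/VASP groups each hold 1 of either colour.

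Within the Arp2/3 complex, 4 of the 7 measured subunit genes rose and none fell, with a median log2 fold change of 0.37. Actr3, which encodes Arp3, one of the actin-related proteins that form the first subunits of the new branch, read 9.65, 9.64 and 9.57 in the control arrays and 10.16, 10.16 and 9.94 in the Nedd4 siRNA arrays (0.47, SE 0.093, limma adjusted p = 0.00375). Arpc1a, which encodes a WD-repeat subunit, read 9.11, 9.24 and 9.21 against 9.76, 9.78 and 9.55 (0.51, SE 0.094, limma adjusted p = 0.00238). For both genes every Nedd4 siRNA array lay above every control array, and the lowest of the Nedd4 siRNA arrays was replicate 3. Arpc2, whose product forms the core of the complex together with that of Arpc4, read 11.65, 11.69 and 11.44 against 12.03, 11.87 and 12.00 (0.37, SE 0.097, limma adjusted p = 0.0183). Arpc5 encodes the smallest subunit of the complex. It read 11.24, 11.16 and 11.47 against 11.79, 11.60 and 11.83 (0.45, SE 0.11, limma adjusted p = 0.0102). These groups did not overlap either, and control replicate 3 was the lowest control for Arpc2 and the highest for Arpc5.

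The other 3 measured subunits did not pass. Arpc1b, the paralogue of Arpc1a, read 11.76, 11.81 and 11.49 in the control arrays and 11.63, 11.85 and 11.62 in the Nedd4 siRNA arrays, so that the groups lay over each other. Its log2 fold change was 0.01, with a 95% interval from −0.22 to 0.25, and a second probeset for the same gene gave −0.08. Arpc4 stood at 0.08 (−0.15 to 0.31) and Arpc5l, the paralogue of Arpc5, at −0.08 (−0.35 to 0.18). Of the 4 subunits that rose, 3 remained past the threshold without control siRNA replicate 3, 2 without Nedd4 siRNA replicate 1 (Actr3 and Arpc1a) and 1 by the methods' t-test (Arpc1a, with Actr3 at an adjusted p of 0.0505).

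**Figure D2:**
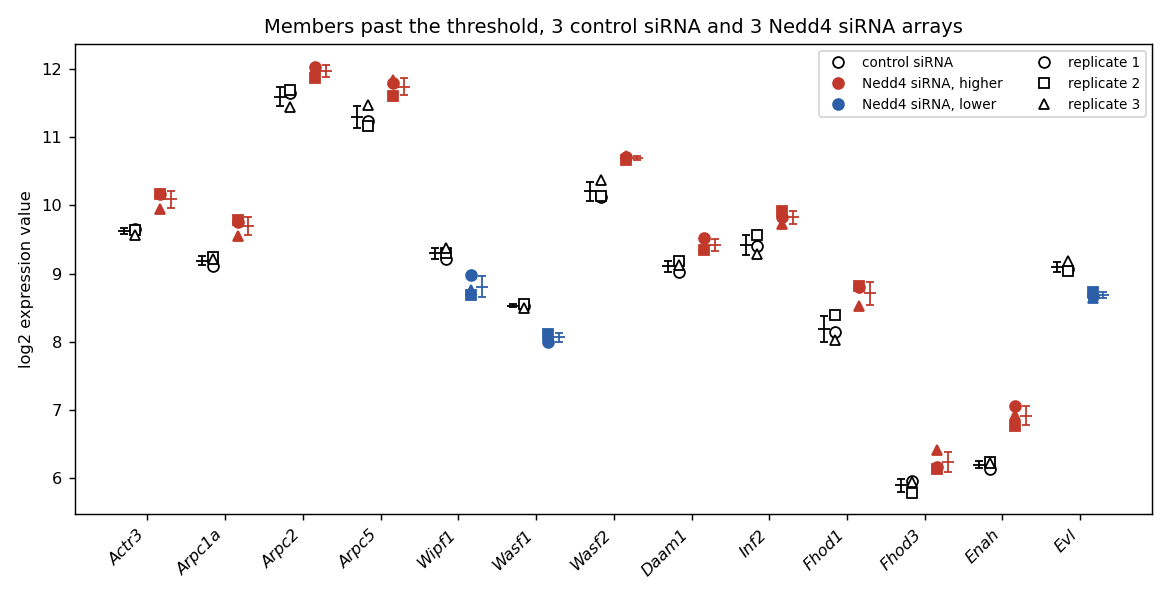
Log2 expression value (vertical axis) in each of the 6 arrays for the 13 genes past the threshold, with open black symbols for control siRNA, filled symbols for Nedd4 siRNA, symbol shape for the replicate number and bars for the mean and SD (n = 3 arrays). In each gene the filled symbols lie wholly above or wholly below the open ones, with the widest gap for Enah, from 6.23 to 6.77.

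Arpc1a and Arpc1b are neighbouring genes on the same strand of chromosome 5. The sequences upstream of Actr3, Arpc1a and Arpc1b are shown because the former pair rose and the last did not. Each is the 250 bases before the RefSeq gene start in build GRCm38.p6, written 5′ to 3′ on the strand of the gene. They lie at chr1:125435728-125435977 on the minus strand, chr5:145083619-145083868 on the plus strand and chr5:145114006-145114255 on the plus strand. Capitals mark matches, on either strand, to CCGGAAG, the usual core of ETS factor sites, to CCAAT, that of NF-Y sites, or to GGGCGG, that of SP and KLF factor sites.
Actr3: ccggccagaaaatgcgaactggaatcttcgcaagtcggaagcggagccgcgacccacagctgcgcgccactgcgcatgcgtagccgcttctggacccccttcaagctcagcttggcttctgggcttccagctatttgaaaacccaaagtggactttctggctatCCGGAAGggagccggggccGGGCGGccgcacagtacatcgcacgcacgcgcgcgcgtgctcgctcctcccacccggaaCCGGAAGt
Arpc1a: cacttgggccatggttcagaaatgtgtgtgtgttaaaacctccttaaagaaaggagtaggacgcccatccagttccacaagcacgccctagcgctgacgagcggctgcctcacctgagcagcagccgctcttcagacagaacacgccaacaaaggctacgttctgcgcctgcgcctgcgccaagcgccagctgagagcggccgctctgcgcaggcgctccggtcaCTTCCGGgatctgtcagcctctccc
Arpc1b: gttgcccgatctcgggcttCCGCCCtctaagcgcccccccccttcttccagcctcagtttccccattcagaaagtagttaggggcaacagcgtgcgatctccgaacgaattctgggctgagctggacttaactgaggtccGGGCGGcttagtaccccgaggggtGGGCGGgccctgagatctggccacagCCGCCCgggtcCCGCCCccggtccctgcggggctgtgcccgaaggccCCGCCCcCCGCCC
The Actr3 window holds 2 matches to CCGGAAG and 1 to GGGCGG, the Arpc1a window holds 1 match to CCGGAAG, read on the opposite strand as CTTCCGG, and the Arpc1b window holds 7 matches to GGGCGG and none to CCGGAAG. Over the 39 genes of the list with a RefSeq promoter, 8 (20.5%) held CCGGAAG in this window, counting a gene where any of its promoters did, and so did 7.83% of all 27025 genes with a promoter and 6.91% of all 32851 promoters. Of the 8 Arp2/3 genes with a promoter, 5 held it, namely Actr2, Actr3, Arpc1a, Arpc3 and Arpc4, so that it was present in Arpc4, which did not pass, and missing from Arpc2 and Arpc5, which rose. GGGCGG was found for 25 of the 39 genes (64.1%, beside 35.4% of all genes), CCAAT for 14 (35.9%, beside 37.5%), CATTCC, the core of TEAD sites, for 7 (17.9%, beside 14.4%), TGANTCA, the AP-1 letters, for 2 (5.13%, beside 7.82%), and a CArG box, the site of serum response factor, for Arpc4 alone (2.56%, beside 1.62%). Both strands were searched for each of the 6, and overlapping matches were counted. Such a match describes the letters and does not show binding, and the genes compared were not matched for expression or base composition.

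Of the 5 genes of WASP proteins, their WIP partners and cortactin, 1 fell and none rose. Wipf1 encodes WIP, which holds WASP and N-WASP in an inactive but stable form. It read 9.21, 9.30 and 9.37 in the control arrays and 8.98, 8.68 and 8.76 in the Nedd4 siRNA arrays (−0.49, SE 0.10, limma adjusted p = 0.00459), with no overlap, and the methods' t-test gave an adjusted p of 0.0774. Wipf2, its paralogue, read 8.76, 9.13 and 8.94 against 8.68, 8.70 and 8.37, also with no overlap, but did not pass (−0.36, 95% interval −0.62 to −0.10, limma adjusted p = 0.0602). Wasl, which encodes N-WASP, stood at 0.12 (−0.09 to 0.33). Cttn, whose product cortactin stabilises branches, stood at 0.17 (−0.04 to 0.38), and Was, the WASP gene of blood cells, at −0.07 on a probeset among the dimmest 25% of the array.

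In the WAVE regulatory complex, which couples active Rac to the Arp2/3 complex, both directions were seen between related genes. Wasf2, which encodes WAVE2, read 10.12, 10.13 and 10.37 in the control arrays and 10.71, 10.66 and 10.72 in the Nedd4 siRNA arrays (0.49, SE 0.094, limma adjusted p = 0.00308). Wasf1, which encodes WAVE1, the form best known from brain, read 8.53, 8.55 and 8.50 against 7.99, 8.12 and 8.09 (−0.46, SE 0.085, limma adjusted p = 0.00233). The Nedd4 siRNA arrays lay close together for Wasf2 and the control arrays for Wasf1, and neither gene's groups overlapped. By the methods' t-test Wasf1 still passed and Wasf2 did not (adjusted p = 0.0532). The third WAVE gene, Wasf3, stood at 0.14 (−0.09 to 0.37). Of the partner subunits, Brk1 (0.27, limma adjusted p = 0.052) and Cyfip2 (0.27, limma adjusted p = 0.0803) had non-overlapping groups but did not pass. The groups overlapped for Nckap1 at 0.03 (−0.18 to 0.24), Abi1 at 0.08 (−0.11 to 0.27) and Abi2 at 0.09 (−0.12 to 0.29).

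The 250 bases upstream of Wasf1 (chr10:40883284-40883533, plus strand) and Wasf2 (chr4:133130383-133130632, plus strand) are shown in the same way, because these paralogues moved in opposite directions.
Wasf1: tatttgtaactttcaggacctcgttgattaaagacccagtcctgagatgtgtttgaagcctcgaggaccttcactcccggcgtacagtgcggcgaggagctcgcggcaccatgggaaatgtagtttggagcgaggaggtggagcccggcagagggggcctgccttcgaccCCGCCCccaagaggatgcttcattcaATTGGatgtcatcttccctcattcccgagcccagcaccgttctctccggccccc
Wasf2: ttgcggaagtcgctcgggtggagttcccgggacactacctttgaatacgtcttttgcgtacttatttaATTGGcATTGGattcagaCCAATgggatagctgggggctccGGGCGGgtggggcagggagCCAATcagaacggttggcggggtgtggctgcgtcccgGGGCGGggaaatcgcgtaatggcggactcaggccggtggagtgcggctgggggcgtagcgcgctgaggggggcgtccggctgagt
The Wasf1 window holds 1 match to CCAAT, read as ATTGG, and 1 to GGGCGG, read as CCGCCC, while the Wasf2 window holds 4 matches to CCAAT on both strands and 2 to GGGCGG. Neither holds CCGGAAG.

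Formins formed the largest group, with 12 measured genes, of which 4 rose and none fell (median log2 fold change 0.13). Fhod1, a formin found on stress fibres, read 8.14, 8.39 and 8.02 in the control arrays and 8.80, 8.81 and 8.52 in the Nedd4 siRNA arrays (0.53, SE 0.12, limma adjusted p = 0.00711). Fhod3, its paralogue of striated muscle, read 5.96, 5.78 and 5.94 against 6.17, 6.13 and 6.41 (0.34, SE 0.10, limma adjusted p = 0.0353) on a probeset among the dimmest 50% of the array. Nedd4 siRNA replicate 3 was the lowest of its group for Fhod1 and the highest for Fhod3, and neither gene's groups overlapped. Inf2, which encodes a formin that can also sever filaments, read 9.41, 9.57 and 9.28 against 9.83, 9.92 and 9.73 (0.41, SE 0.099, limma adjusted p = 0.0133). Daam1, a formin of the planar cell polarity branch of Wnt signalling, read 9.02, 9.18 and 9.12 against 9.52, 9.35 and 9.40 (0.32, SE 0.090, limma adjusted p = 0.0303), again with no overlap.

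The diaphanous genes did not pass, with Diaph1 at 0.08, Diaph2 at 0.14 and Diaph3 at 0.16. Diaph3 had non-overlapping groups at 7.83, 8.03 and 7.98 against 8.04, 8.16 and 8.12, yet its interval ran from −0.04 to 0.36. Daam2 (−0.05), Fmnl1 (0.07), Fmnl2 (0.11), Fmn1 (0.07) and Fmn2 (−0.05) had overlapping groups, and the Fmn2 probeset was among the dimmest 25% of the array. Of the 4 formins that rose, Fhod1 alone passed without control siRNA replicate 3 or without Nedd4 siRNA replicate 1, 2 passed without Nedd4 siRNA replicate 3 (Inf2 and Fhod1), and none passed by the methods' t-test.

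The 3 Ena/VASP genes, which encode proteins that lengthen filaments at the leading edge, took 3 courses. Enah, which encodes MENA, read 6.14, 6.23 and 6.22 in the control arrays and 7.06, 6.77 and 6.92 in the Nedd4 siRNA arrays (0.72, SE 0.096, limma adjusted p = 0.000242), which at 1.65-fold was the largest change on the list. Evl read 9.07, 9.04 and 9.18 against 8.67, 8.73 and 8.64 (−0.42, SE 0.086, limma adjusted p = 0.00486). Neither gene's groups overlapped, and both kept their call under each of the 16 alternative settings. Vasp read 7.48, 7.56 and 7.17 against 7.52, 7.56 and 7.49, with overlapping groups (0.12, 95% interval −0.11 to 0.35). The 250 bases upstream of Enah (chr1:182019981-182020230, minus strand) are shown because it changed most.
Enah: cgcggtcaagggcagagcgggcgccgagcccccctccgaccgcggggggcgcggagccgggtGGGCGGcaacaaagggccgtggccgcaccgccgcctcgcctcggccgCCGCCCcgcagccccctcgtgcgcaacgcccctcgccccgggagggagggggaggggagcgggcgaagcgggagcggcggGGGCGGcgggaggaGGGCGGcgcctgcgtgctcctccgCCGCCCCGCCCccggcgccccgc
They hold 6 matches to GGGCGG, of which the last pair overlap, and none to CCGGAAG or CCAAT.

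The tandem WH2 nucleators, which line up actin monomers into a seed, showed no change that passed. Spire1 stood at −0.18 (95% interval −0.38 to 0.02), Spire2 at −0.10 (−0.29 to 0.09) and Cobl at −0.09 (−0.29 to 0.10). For Spire2 the groups did not overlap, at 6.43, 6.49 and 6.43 in the control arrays against 6.39, 6.27 and 6.39. The capping protein and cyclase-associated protein genes did not pass either. Capzb, the beta subunit of capping protein, read 11.07, 11.11 and 11.23 against 11.33, 11.33 and 11.32, with no overlap (0.19, 95% interval 0.003 to 0.38, limma adjusted p = 0.187). The alpha subunit genes stood at −0.07 for Capza1, with −0.11 from a second probeset, and at −0.01 for Capza2. Cap1 stood at 0.12 and Cap2 at −0.01. Over all 30 genes that did not pass, the 95% interval lay within 0.5 of no change for 29, the exception being Wipf2, and within 0.25 for 5.

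By its median the list lay higher in each Nedd4 siRNA array than in any control array. Relative to each gene's control mean, the median over the 43 genes was −0.04, 0.02 and 0.003 in control replicates 1 to 3. It was 0.12, 0.13 and 0.08 in Nedd4 siRNA replicates 1 to 3. The control values lie near 0 by construction, and no such value was taken over all named genes. Nedd4 siRNA replicate 1 was the lowest of its group for 3 genes, while replicates 2 and 3 were lowest for 19 and 21. Without Nedd4 siRNA replicate 1, Arpc2, Arpc5, Daam1, Inf2 and Fhod3 no longer passed, and without control siRNA replicate 3, Arpc2, Daam1, Inf2 and Fhod3 did not.

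**Figure D3:**
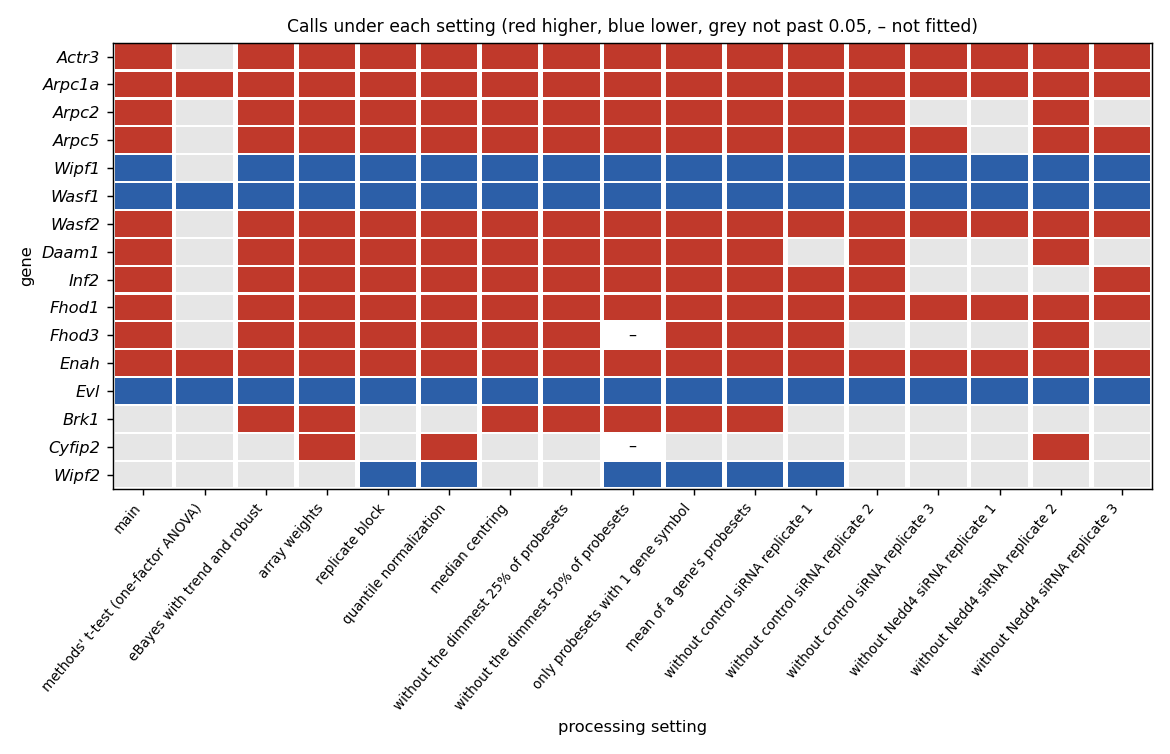
Call of each gene (rows) under the main setting and each alternative (columns), with red for higher, blue for lower, grey for an adjusted p of 0.05 or more and a dash where the probeset was filtered out. Arpc1a, Wasf1, Enah and Evl are coloured in all columns, whereas Daam1 and Fhod3 are grey under 5 of them.

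Related genes were also compared within each array, as the log2 value of one minus that of the other. Since each gene has its own probeset, the change in this ratio between the groups can be read but not its size. Of 16 measurable pairs, 4 had ratios that did not overlap between the groups. Of all named genes taken singly, 31.7% showed no overlap, and no such share was taken over other pairs. The Wasf1 over Wasf2 ratio read −1.59, −1.58 and −1.87 in the control arrays and −2.72, −2.54 and −2.63 in the Nedd4 siRNA arrays, a change of −0.95. Vasp over Enah changed by −0.60, Vasp over Evl by 0.54 and Arpc1a over Arpc1b by 0.50. The last read −2.65, −2.57 and −2.28 against −1.87, −2.07 and −2.07. Each of these 4 had p = 0.1 by a two-sided exact permutation test, which is the smallest that 3 arrays against 3 can give, and 0.4 after Benjamini-Hochberg adjustment over the 16 pairs. For Wasf1 over Wasf2 this outcome was fixed, since both genes had non-overlapping groups and moved in opposite directions. That ratio adds no test beyond the calls of the single genes. The Arpc5 over Arpc5l ratio changed by 0.53 but overlapped, at 3.75, 3.41 and 4.19 against 4.31, 4.07 and 4.57 (exact permutation p = 0.2), and so did Daam1 over Daam2, which changed by 0.37.

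**Figure D4:**
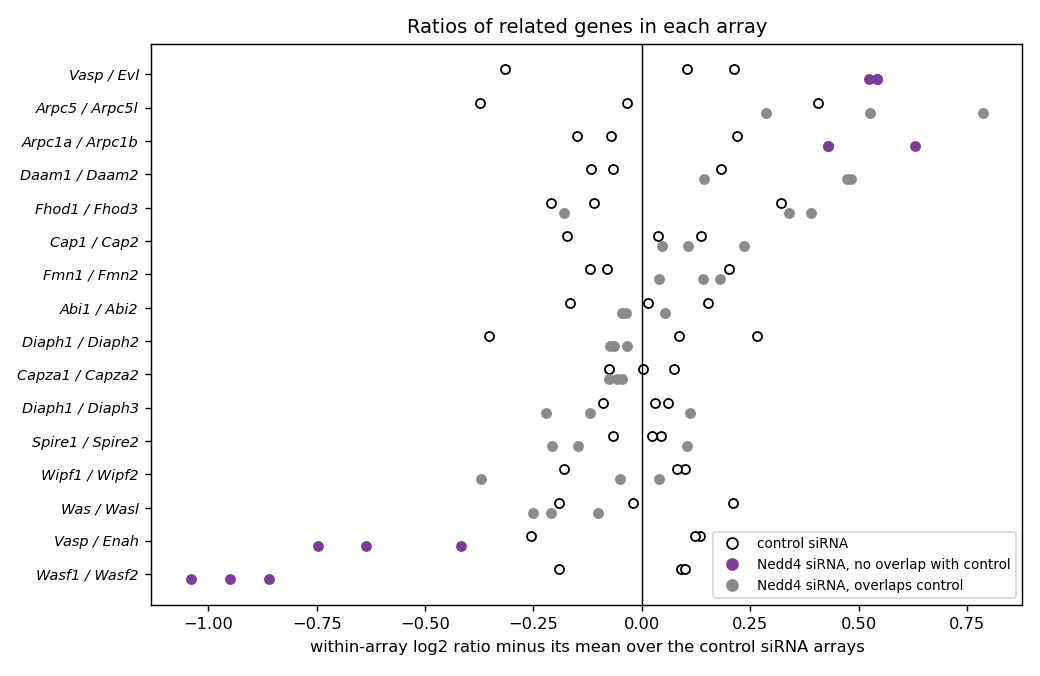
Within-array log2 ratio of 16 pairs of related genes, minus its mean over the control siRNA arrays (horizontal axis), with open points for the 3 control siRNA arrays and filled points for the 3 Nedd4 siRNA arrays, purple where the groups do not overlap. Wasf1 over Wasf2 lies farthest from the controls, with a change of −0.95, and most grey points lie among the open ones.

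Genes that act on these nucleators were taken from 5 further lists, of which 70 of 71 genes were measured. Of the 70, 11 rose and 6 fell (15.7% and 8.57%, beside 9.62% and 9.13% of all named genes), with a median log2 fold change of 0.03. By the methods' t-test 6 rose and 4 fell, and 7 rose without Nedd4 siRNA replicate 1 or without replicate 2. Of 20 F-BAR and I-BAR proteins and adaptors that bring nucleators to the membrane, 4 rose, namely Srgap1 (0.81), Itsn1 (0.47), Baiap2 (0.47), which encodes the WAVE2 partner IRSp53, and Nck1 (0.38). From the same list Mtss1, an I-BAR protein, fell by 1.06, from 9.55, 9.60 and 9.70 in the control arrays to 8.65, 8.53 and 8.48 in the Nedd4 siRNA arrays, and Apbb1ip fell by 0.40. Nck1 no longer passed without control siRNA replicate 1 or 2 or without Nedd4 siRNA replicate 1 or 2. Of this list, 1 gene rose (Srgap1) and 1 fell (Mtss1) by the methods' t-test, and 1 fell without Nedd4 siRNA replicate 2.

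Of 14 other nucleation promoting factors, 3 rose, all of them among the 5 measured subunit genes of the WASH complex, which acts on endosomes. Washc4 read 10.03, 10.14 and 9.92 in the control arrays and 10.75, 10.75 and 10.70 in the Nedd4 siRNA arrays (0.70, SE 0.090, limma adjusted p = 0.000177), and Washc2 (0.32) and Washc1 (0.29) rose too. The other subunit genes did not pass, with Washc3 at −0.06 and Washc5 at −0.16, the latter with no overlap at 11.17, 11.14 and 11.16 against 10.96, 11.05 and 10.99. Jmy, which encodes a factor that nucleates filaments as well as activating the Arp2/3 complex, fell (−0.46). Without control siRNA replicate 3, and likewise without Nedd4 siRNA replicate 1 or 2, 1 of the 3 that rose passed. In a list of 11 genes for inhibitors of the Arp2/3 complex, debranching factors and coronins, Coro2b (−0.63) and Coro1c (−0.45) fell and Pick1 (0.42) rose. Of the 11, 8 had a negative sign (median −0.18), while 9055 of all 19933 named genes had a positive sign (median −0.017). Whether each coronin of the list acts on the Arp2/3 complex was not tested. Arpin, a direct inhibitor, stood at −0.27 (limma adjusted p = 0.0537). Without control siRNA replicate 2, 2 of this list rose and 1 fell. It kept 1 higher but only 1 lower without Nedd4 siRNA replicate 1 or 3, and had 0 and 1 by the methods' t-test. Other settings added a lower call, so that 3 genes of this list fell and 1 rose. This was seen after quantile normalization, after dropping the dimmest 25% or 50% of probesets, and with arrays weighted. Blocking on replicate number gave 3 lower too, as did eBayes with both options set. So did averaging a gene's probesets, and fitting only those that carry 1 symbol.

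Of 19 capping regulators and other capping proteins, Carmil1, which takes capping protein off filament ends, rose from 7.10, 7.39 and 7.25 to 8.20, 8.20 and 7.98 (0.88, SE 0.10, limma adjusted p = 9.76e-05). Tmod3, a pointed-end capping protein (0.60), and Mtpn, which sequesters capping protein (0.33), rose too, and Add1, an adducin (−0.54), fell. Mtpn no longer passed without control siRNA replicate 1 or 3 or without Nedd4 siRNA replicate 1 or 2. By the methods' t-test Tmod3 (adjusted p = 0.0501) and Add1 (adjusted p = 0.15) did not pass. None of 6 other nucleators, among them the leiomodins, passed by limma, and none did at an unadjusted p under 0.05.

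**Figure D5:**
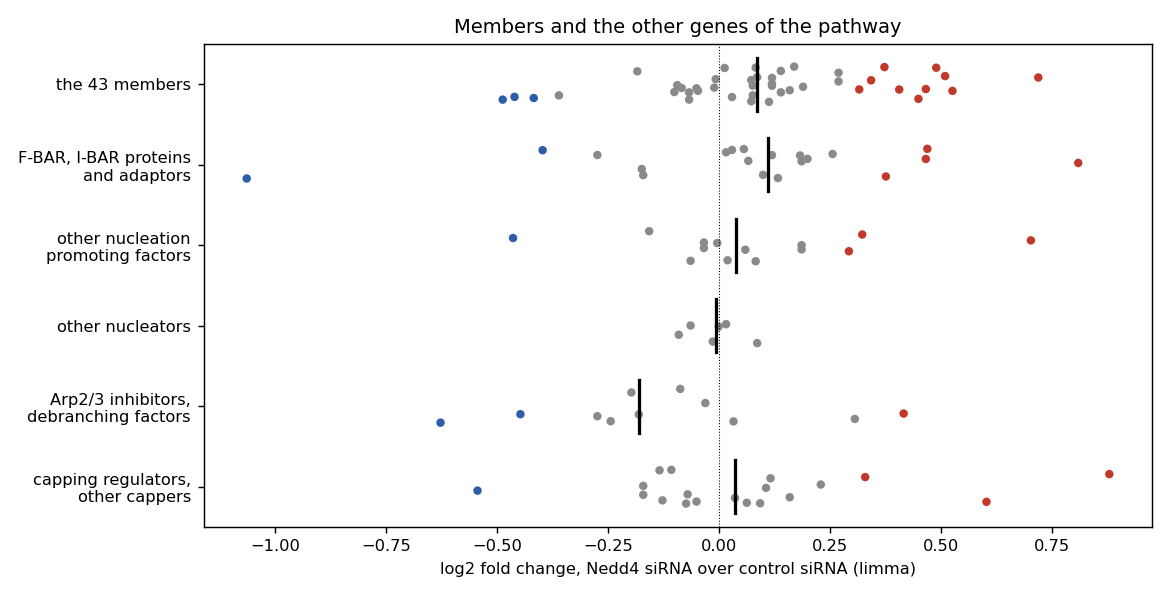
Log2 fold change (Nedd4 siRNA over control siRNA, limma) of the 43 listed genes and of 5 further lists, with 1 point per gene, red for higher and blue for lower at an adjusted p under 0.05, and a black bar for the median (height within a row carries no meaning). The median bar of the 43 genes lies at 0.087 and that of the Arp2/3 inhibitors and debranching factors at −0.18.

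Markers of cell types moved between the same arrays. Of 12 neural crest genes, 2 were higher and 5 lower, and their summed level on the linear scale ranged from 12282 to 12951 in the control arrays and from 10057 to 10943 in the Nedd4 siRNA arrays. Foxd3 (−0.54) and Ets1 (−0.53) were among those that fell, and Sox9 (0.66) rose. Twist1, the other that rose, passed in 1 of the 6 fits that left out an array, and by the methods' t-test 1 neural crest gene was higher and 2 were lower. In a list of 15 smooth muscle, pericyte and fibroblast genes, 4 rose and none fell, among them Pdgfra (0.81) and Dcn (0.58). The sums were 11821 to 12182 against 14294 to 15306, but bright genes weigh most in them. Postn, the brightest of the list, read 12.98, 12.98 and 12.99 against 13.17, 13.20 and 13.29 and did not pass (limma adjusted p = 0.081). Of 8 Schwann cell and satellite glia genes 1 was higher and 2 were lower (14252 to 14661 against 13998 to 14456). Fabp7 rose (1.20), while Cnp (−1.58) and Erbb3 (−1.14) fell, so that these overlapping sums joined changes in both directions. Of 11 neuronal genes 2 were higher and 2 lower (1420 to 1499 against 1339 to 1469), with Nefl (−1.19) changing most. Only 1 neuronal gene was higher without control siRNA replicate 1 or 2, without Nedd4 siRNA replicate 1 or 3, or by the methods' t-test. None of 8 melanocyte genes passed, with sums of 572 to 593 against 621 to 645. Of these, 7 lay among the dimmest 50% of probesets, and the other, Mitf, stood at 0.28 (limma adjusted p = 0.0572). With array weights, quantile normalization or median centring, 1 of the 8 melanocyte genes was higher. The same held without the dimmest 25% or 50% of probesets and over single-symbol probesets alone. Among 10 macrophage and 9 endothelial genes none passed, and 8 of each lay among the dimmest 50% of probesets. The part of these cell types in the values of the actin genes was not tested.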

How the data were processed

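The authors scanned 6 Affymetrix Mouse Gene 1.0 ST arrays, 3 per siRNA. Per their methods, the scans were background corrected with RMA in Partek software, corrected for GC content and summarised by the mean over probes, and the submitters' processing notes give version 6.5 of Partek. The authors deposited the resulting log2 values for 28440 probesets, which were used as they stand. The genome build used for the array annotation is not given in the sources used here. The design notes describe separate experiments in culture dishes and the methods a well of a multiwell plate, which was not reconciled.

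Of the probesets, 21780 carried 1 gene symbol in the platform annotation, 1618 several and 5042 none, and genes were named from the first kind. Groups were compared with limma 3.58.1 (lmFit, eBayes) in R 4.3.3, without covariates, two-sided, with Benjamini-Hochberg adjustment at 0.05, and the fit was tested on simulated data. Python 3.11.15, pandas 2.3.3, NumPy 2.4.6, SciPy 1.17.1 and Matplotlib 3.10.9 served for counts, exact tests and figures. A further gene list is not reported here. The genes and lists were chosen with earlier results of these data known. The text gives each array's value for every listed gene that passed, the fold change of every other, and up to 5 genes past the threshold with the smallest p from each further list, to which Nck1 was added as the sixth of its list. Arpin, Washc3 and Washc5 were chosen once their values were known. The values of genes with non-overlapping groups that did not pass, and the promoters shown, were chosen after their values were seen. Promoter sequences came from RefSeq (GRCm38.p6), with 39 of the 47 genes matched. As alternatives, the fit was repeated without each array, with quantile normalization or median centring, with array weights, with a replicate block, with eBayes set to trend and robust, without the dimmest 25% or 50% of probesets, over single-symbol probesets alone, on the mean over the probesets of a gene, and at an adjusted p of 0.01, and the methods' t-test was run with the same adjustment. Replicate numbers were not used as pairs in the main fit, since the titles do not say that they mark a shared batch. Same-numbered arrays deviated together in 1 of 3 pairs (correlations −0.012, 0.472 and −0.013). With 3 arrays per group, these correlations cannot tell whether such arrays shared a batch.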

Additional observations from a re-analysis of the deposited data

How the results depend on the processing

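Arpc1a, Wasf1, Enah and Evl kept their call under all 16 alternatives to the fit, and Actr3, Wasf2, Wipf1 and Fhod1 under all but the methods' t-test. The 10 listed genes that were higher came to 2 by the methods' t-test and 5 at an adjusted p under 0.01, and ranged from 5 to 10 when 1 array was left out. The 3 that were lower ranged from 2 to 4 throughout. The median of 0.087 was 0.117 with array weights and ranged from 0.075 to 0.14 with 1 array left out, and its sign did not change. The methods' t-test gave 1804 named genes in place of 3737. With the replicate block, 10 were higher and 4 lower, since Wipf2 passed (adjusted p = 0.0443), and no other call on the list changed. Under the block Nck1, the neural crest gene Twist1 and the neuronal gene Map2 lost their calls (adjusted p = 0.0528, 0.0535 and 0.0557), and the F-BAR, I-BAR and adaptor list had 3 higher and 3 lower in place of 4 and 2. Brk1 passed under 7 alternatives, Wipf2 under 6 and Cyfip2 under 3. For the genes of the further lists, whose alternatives were chosen after the data were seen, the methods' t-test gave 6 higher and 4 lower in place of 11 and 6, an adjusted p under 0.01 gave 7 and 4, and leaving out 1 array gave 7 to 11 higher and 5 or 6 lower. Reversals of sign were seen for genes near 0 that passed under no setting. Arpc1b was −0.016 with array weights, −0.021 with quantile normalization and −0.033 as the mean of its probesets, Cap2 was 0.045, 0.018 and 0.013 with array weights, quantile normalization and median centring, and Capza2 was 0.017 with median centring. With 1 array left out the ranges were −0.085 to 0.075 for Arpc1b, −0.03 to 0.14 for Arpc4, −0.20 to 0.038 for Arpc5l, −0.058 to 0.027 for Cap2, −0.062 to 0.043 for Capza2, −0.14 to 0.045 for Daam2, −0.073 to 0.0017 for Fmn2 and −0.022 to 0.097 for Nckap1. Leaving out the dimmest probesets removed 2 of the 43 genes at 25% and 6, Fhod3 among them, at 50%. The cause of these shifts was not tested.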
